A study of Danio rerio with 16 samples.

Results

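The brain transcriptomes of the 2 commercial zebrafish strains, AB and SH, were compared in the 8 of 16 whole-brain RNA-sequencing libraries that the sample labels assign to them. The comparison asked which genes and functions differ between these strains and whether the difference is alike in females and males. AB fish came from the Zebrafish International Resource Center and had been kept in the study's laboratory for 4 generations, whereas SH fish came from Scientific Hatcheries and had been kept there for 1 generation. All AB and SH fish were 17 weeks old, sexually mature and untreated, lived in mixed-sex tanks and carried no transgene or mutation named in the labels. Each strain had 2 female and 2 male libraries, and each library held pooled brain RNA of 10 fish of the same strain and sex, so that 80 fish stand behind the comparison and no value belongs to a single fish. Each strain was sampled from 1 stock, so strain, supplier and time in the laboratory cannot be told apart, and the spread between libraries is that between pools. The remaining 8 libraries serve only to place the AB and SH values and in an alternative fit. They are of the HSB (High Stationary Behavior) and LSB (Low Stationary Behavior) strains, produced by selective breeding from wild-caught fish. Some of the HSB and LSB fish had undergone behavioral testing weeks before sampling.

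Zebrafish laboratory strains are closed or semi-closed stocks that differ in many sequence variants, in the alleles they carry at immune loci such as the major histocompatibility complex (MHC), and in behavior. RNA from whole brain is a mixture of neurons, myelinating oligodendrocytes, radial glia, microglia and vessels. In such bulk samples a lower level of a cell type's genes can come from fewer cells of that type or from less RNA per cell, and these cannot be told apart.

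Reads assigned to genes numbered 23064223 to 34883159 per AB library, with a median of 27591409, and 23803770 to 35737825 per SH library, with a median of 32609409, so that 1 read equalled 0.0280 to 0.0434 CPM, the unit in which the reads of each library sum to 1000000. Markers of brain cells were present in every library, with summed levels of 37396 to 45067 CPM for oligodendrocyte and myelin genes in AB and 27091 to 32542 CPM in SH, and 8707 to 8910 CPM for neuronal genes in AB and 9177 to 9384 CPM in SH. One library stood apart. The 20 skeletal muscle genes summed to 3652 CPM in AB male pool 2, against 88.6 to 252.6 CPM in the other AB libraries and 77.4 to 222.8 CPM in the SH libraries. Some of the results that rest on this library are given with and without it. Photoreceptor and pineal genes summed to 315 and 345 CPM in AB females and 149 and 173 CPM in AB males. In SH they summed to 174 and 314 CPM in females and 334 and 163 CPM in males.

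Of the squared distance between the 8 libraries, 62.0% lay between the strains, over 15304 genes (exact permutation test over the 35 splits into groups of 4, one-sided, p = 0.0286, the smallest p this design can give). Sex within strain accounted for 17.9% of the squared distance and the pools of one strain and sex for 20.1%. The share of strain was between 61.1% and 67.5% in the fits without 1 library, and it was 67.5% without AB male pool 2.

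In limma, 7190 of the 15304 genes, or 47.0% of those tested, had a Benjamini-Hochberg adjusted p under 0.05. The model was linear in log2(CPM + 0.5) and took strain and sex into account. All differences are given as AB minus SH on this scale, where the added constant shrinks the differences of weakly expressed genes. Expression was higher in AB for 2602 genes (17.0%) and lower in AB for 4588 (30.0%). This unequal split depended on the scaling of the libraries. After rescaling by the median ratio of the libraries, which moved the median difference of all genes to 0.00 from the -0.04 of the deposited scale, 3457 genes were higher in AB (22.6%) and 3471 lower (22.7%). For 6273 genes, 41.0% of all, the 4 AB libraries lay wholly above or wholly below the 4 SH libraries.

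Most differences were small. The median absolute difference of the 7190 genes was 0.28 on the log2 scale, and 82.9% of them differed by less than 0.50. At least a 2-fold difference was found for 125 genes higher in AB (0.817% of all genes) and for 129 lower in AB (0.843%), 1.66% of all genes together. At least a 4-fold difference was found for 30 genes higher in AB (0.196%) and for 28 lower in AB (0.183%), 0.379% together, and for 21 genes the difference was at least 8-fold.

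The strain difference was largely alike in both sexes. Within females 4388 genes passed the threshold (28.7% of genes tested) and within males 4789 (31.3%), and 3156 genes passed in both, which is 71.9% of those called in females and 65.9% of those called in males. Of these shared genes, 4 had opposite signs in the sexes. Of the genes called in females, 97.7% had the same sign in males, and of those called in males, 98.1% had the same sign in females, beside 81.4% of all genes. The median difference of the female calls was 0.36 in females and 0.31 in males in the same direction, and that of the male calls was 0.35 in males and 0.28 in females. Across all genes the female and male differences had a Pearson r of 0.80 and a Spearman rho of 0.79, a description over genes, which are not independent replicates. All 58 genes with at least a 4-fold difference had the same sign in both sexes, and 57 of them differed at least 2-fold in each sex. These genes were picked by their difference over both sexes together, so this agreement is in part built in.

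**Figure D1:**
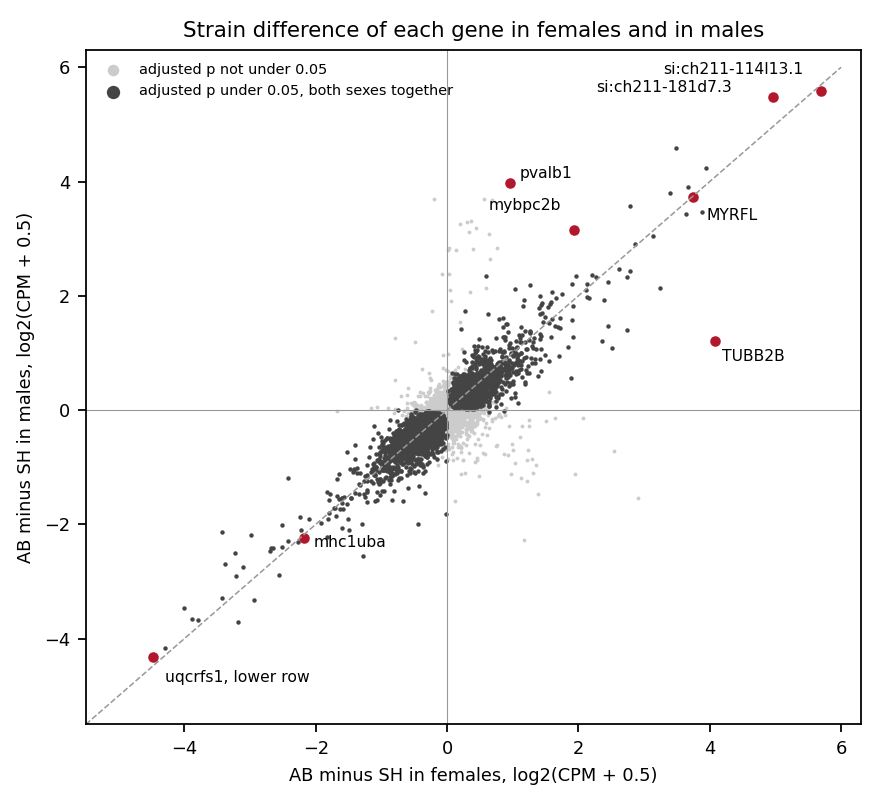
The strain difference in females (x axis) is plotted against that in males (y axis), both as AB minus SH on the log2(CPM + 0.5) scale, for 15304 genes, with the genes past the threshold in dark grey and 8 named genes in red. The points lie along the dashed line of equal differences, while TUBB2B lies below it (4.09 in females and 1.20 in males) and pvalb1 and mybpc2b, which were high in AB male pool 2, lie above it.

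The test of the difference between the sexes, the strain by sex interaction, had an adjusted p under 0.05 for 2 genes (0.0131% of genes tested) and an unadjusted p under 0.05 for 929 (6.07%). TUBB2B, annotated as a beta tubulin, a building block of microtubules, had 17.2 and 14.7 CPM in AB females and 13.7 and 17.8 CPM in AB males, against 0.392 and 0.543 CPM in SH females and 7.54 and 5.59 CPM in SH males. Its AB minus SH difference was 4.09 in females and 1.20 in males, a gap of -2.88 ± 0.24 (males minus females, SE, limma adjusted p = 0.00604). The gap lay on the SH side, where the female pools were far below the male pools, whereas the AB pools of both sexes overlapped. The second gene was si:dkey-177e13.4, whose current symbol is crema, a homolog of the mammalian CREM gene of cAMP-responsive transcription. It had 101 and 105 CPM in AB females and 87.0 and 89.6 CPM in AB males, against 128 and 128 CPM in SH females and 168 and 172 CPM in SH males, so that it was lower in AB by 0.31 in females and 0.94 in males on the log2 scale (interaction -0.63 ± 0.06, SE, adjusted p = 0.0103). The number of genes with an interaction rested on single libraries. It was 37 without AB male pool 1, 4 without AB male pool 2, 1 without AB female pool 2, SH female pool 2 or SH male pool 1, and 0 without SH female pool 1, where 738 genes had an unadjusted p under 0.05.

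Many of the largest differences belonged to genes with almost no reads in one strain. The highest was si:ch211-114l13.1, with 28.4, 28.4, 27.2 and 28.5 CPM in AB, against 0.0560, 0.0604, 0.0935 and 0.0840 CPM in SH (log2 difference 5.64 ± 0.08, SE, adjusted p = 2.0e-11). The SH values stand for 2 or 3 reads in a library, whereas the AB values varied little between pools. The size of such a difference depends on the constant added before the log, and ranged from 4.76 to 7.35 over the alternatives tried. Next to it, among the measured genes placed in the order of the GRCz12tu assembly, lie trim35-1, named as a tripartite motif gene, and caspbl, named as a caspase-b-like gene, both chosen after their values were seen. Both were also higher in AB, at 2.34 to 3.49 CPM in AB against at most 0.210 CPM in SH for trim35-1 (log2 difference 2.54) and 3.24 to 3.73 CPM in AB against at most 0.0623 CPM in SH for caspbl (2.89).

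A second pair of neighbours was si:ch211-181d7.3, whose current symbol nlrc11 places it in the NLRC group of NOD-like receptors, a family of intracellular pattern receptors, and CR457441.2. The first had 42.2, 12.7, 42.5 and 23.4 CPM in AB against 0.168, 0.362, 0.156 and 0.294 CPM in SH (log2 difference 5.22 ± 0.32), and the other had 7.24 to 19.4 CPM in AB against 0.168 to 0.392 CPM in SH (4.09 ± 0.27). In both genes AB female pool 2 and AB male pool 2 had the lower AB values. The third pair was si:busm1-48c11.3, which RefSeq names mhc2dga, and the gene that RefSeq names mhc2dgb, both genes of MHC class II, whose proteins present peptides to helper T cells. The first had 4.62, 7.85, 9.52 and 5.38 CPM in AB, against 0, 0.0302, 0.0312 and 0 CPM in SH (log2 difference 3.78 ± 0.20). The SH values are a single read in each of 2 libraries and none in the others, and a count of 0 allows up to 0.0839 CPM in SH female pool 1 and 0.126 CPM in SH male pool 2 for counting error alone. The other had 8.06 to 13.9 CPM in AB against 0.336 to 0.604 CPM in SH (3.59 ± 0.17). Across the 12578 genes that could be placed in the order of that assembly, 7 of the 36 genes with at least a 4-fold difference (19.4%) had a direct neighbour with such a difference in the same direction, while 0.564% of all placed genes had any such neighbour. For at least a 2-fold difference, 18 of 156 genes (11.5%) had such a neighbour in the same direction and 2 had one in the opposite direction, beside 2.43% of all genes with any such neighbour. Neighbours here are adjacent among the placed genes, and genes that were not placed may lie between them.

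MYRFL, a relative of the myelin regulatory factor gene, had 3.70, 10.2, 7.22 and 6.55 CPM in AB, against 0, 0, 0.0312 and 0.0840 CPM in SH (log2 difference 3.74 ± 0.23, adjusted p = 1.7e-06). ITGAL, the alpha chain of the leukocyte integrin LFA-1, had 44.5, 48.9, 46.5 and 52.5 CPM in AB, against 9.51, 11.1, 12.7 and 8.28 CPM in SH (2.17 ± 0.11). The groups of both genes were far apart. The immunoglobulin M heavy chain gene ighm, expressed by B cells, had 15.4, 6.86, 7.67 and 20.4 CPM in AB, against 1.04, 2.26, 2.46 and 3.44 CPM in SH (2.16 ± 0.32, adjusted p = 0.000321). The acetylcholine receptor subunit chrne was at 4.84 to 6.52 CPM in AB and 0.867 to 1.56 CPM in SH (1.88 ± 0.11), and ptgr1, an enzyme that inactivates prostaglandins and leukotrienes, at 32.9 to 74.1 CPM in AB and 12.9 to 17.1 CPM in SH (1.84 ± 0.21). The kinetochore gene nsl1 had 5.504, 8.30, 5.44 and 1.13 CPM in AB against 0.420 to 0.895 CPM in SH (1.96 ± 0.36), where AB male pool 2 was close to SH. The remaining genes of the 10 largest on this side were CABZ01056518.1 (4.03), si:ch211-233m11.1 (3.68), si:dkey-240n22.6 (3.54) and si:dkeyp-52c3.2 (3.17). The muscle gene mybpc2b had 4.53, 3.81, 5.16 and 38.2 CPM in AB, against 0.532 to 1.96 CPM in SH (2.54 ± 0.51), with its highest value in the library that was rich in muscle genes. Without that library its difference was 1.87 (adjusted p = 0.000209), and all AB libraries remained above all SH libraries.

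On the other side, the largest difference (-4.39) was that of a row of uqcrfs1, given below with the shared symbols. The gene si:ch73-308m11.1 had 0.0860, 0.0754, 0.0698 and 0.0867 CPM in AB, against 10.3, 11.4, 8.60 and 11.3 CPM in SH (log2 difference -4.23 ± 0.12, adjusted p = 5.3e-09). The gene zgc:114164, whose current symbol myl4 is that of a myosin light chain, had 0.0287 to 0.226 CPM in AB and 5.48 to 11.4 CPM in SH (-3.76 ± 0.23), and the beta tubulin tubb4b had 0.0349 to 0.0860 CPM in AB and 3.83 to 8.04 CPM in SH (-3.45 ± 0.18). Their AB values were 1 to 6 reads in a library. A row named CU929133.1, annotated as selenoprotein L, had 1.40, 1.96, 1.36 and 1.69 CPM in AB, against 30.4, 28.6, 22.1 and 28.7 CPM in SH (-3.73 ± 0.11). The other row of this symbol was at -0.77, and the mean sum of the rows was 6.21 CPM in AB and 35.7 CPM in SH (-2.43). The liver-type glycogen phosphorylase gene pygl, which releases glucose from glycogen, had 3.67, 2.41, 2.76 and 3.21 CPM in AB, against 27.7, 24.7, 35.1 and 33.5 CPM in SH (-3.13 ± 0.12). All AB libraries were far below all SH libraries in both genes. CCDC39, a gene needed for the assembly of motile cilia, had 6.48, 8.34, 7.53 and 8.93 CPM in AB, against 73.7, 61.1, 43.7 and 76.2 CPM in SH (-2.92 ± 0.16), and its functional partner ccdc40, chosen after its values were seen, had 1.85 to 2.87 CPM in AB and 5.48 to 9.12 CPM in SH (-1.57 ± 0.15). Others among the largest were CABZ01029902.1 (-3.73), si:dkey-22i16.9 (-3.36), the short-chain dehydrogenase dhrs13l1 (-2.45), the galectin lgals1l1 (-2.03) and ppdpfa (-1.79).

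**Figure D2:**
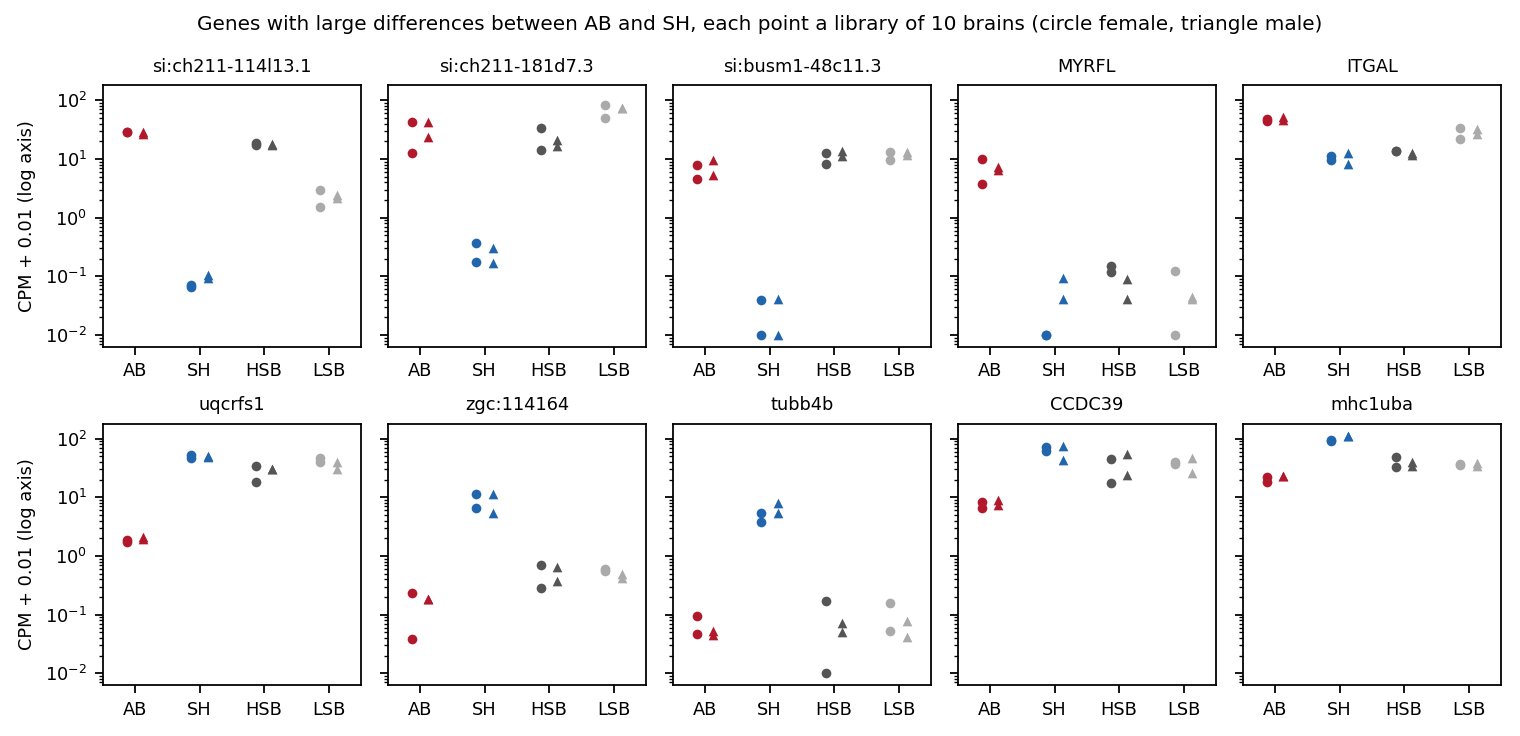
CPM plus 0.01 on a log axis is plotted for 10 genes in each library of AB and SH and, for placement, of HSB and LSB, with circles for female and triangles for male libraries, and for uqcrfs1 the row that was lower in AB. AB and SH do not overlap for any of the 10 genes, and the HSB and LSB libraries lie at or above AB for si:busm1-48c11.3, nearer to SH for the uqcrfs1 row and between the strains for CCDC39.

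The HSB and LSB libraries were used to place the AB and SH values. Of the 248 genes with at least a 2-fold difference and no overlap between AB and SH, the means of HSB and LSB were both on the AB side of the midpoint between AB and SH for 102 (41.1%). Both were on the SH side for 76 (30.6%). A mean that lies between AB and SH also counts to its nearer side, so these counts do not show which strain was the outlying one. HSB alone was on the AB side for 39 genes and LSB alone for 31. For the MHC class II gene si:busm1-48c11.3, HSB had 8.33 to 13.5 CPM and LSB 9.77 to 13.2 CPM, beside 4.62 to 9.52 CPM in AB. For MYRFL, HSB and LSB had at most 0.138 CPM, so that AB alone had more than a few reads. For tubb4b, HSB and LSB had at most 0.163 CPM, so that SH alone did.

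Some differences concerned symbols that the table carries more than once. Of its 15304 rows, 296 share a symbol with another row, over 146 symbols. Of these rows 52.0% were called, close to the 46.9% of rows with a symbol of their own, and 28 (9.46%) differed at least 2-fold between the strains, beside 1.51% of the other rows. For 35 symbols, 24.0% of those shared, a row was called higher in AB while another row of the same symbol was called lower. For uqcrfs1, the Rieske subunit of mitochondrial complex III, the lower row had 1.86, 1.70, 2.13 and 1.95 CPM in AB against 53.7, 46.9, 48.8 and 51.2 CPM in SH (-4.39 ± 0.07, adjusted p = 2.5e-11). The other row had 73.8, 67.8, 72.4 and 68.5 CPM in AB against 34.2, 41.7, 46.8 and 42.1 CPM in SH (0.78 ± 0.07). The rows moved in opposite directions, and their sum was 72.5 ± 3.03 CPM in AB and 91.3 ± 3.69 CPM in SH (SD, n = 4 each), a difference of -0.33 (adjusted p = 9.0e-05).

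For most of these symbols the sum did not pass the threshold. The mitochondrial malic enzyme me2 had rows at -3.03 and 1.06, and its sum was 17.2 ± 1.47 CPM in AB and 15.2 ± 0.374 CPM in SH (SD, n = 4 each, limma adjusted p = 0.0577). The secretory granule gene scg5 had rows at -1.80 and 0.99, and its sum was 40.2 ± 2.75 CPM in AB and 40.9 ± 3.20 CPM in SH (limma adjusted p = 0.791, n = 4 each). The respiratory chain genes cox5aa (2.34 and -0.47) and ndufv3 (1.90 and -0.61) and the transporter slc35b1 (1.81 and -1.04) likewise had sums with adjusted p of 0.0842, 0.466 and 0.567. In all, 26 of the 35 sums did not pass. These symbols were picked because their rows went opposite ways, so a sum that differs less than its rows is in part built in. Among these 35 symbols, the largest difference of a sum was that of st8sia1, a ganglioside sialyltransferase. Its sum was 29.8 ± 3.20 CPM in AB and 16.5 ± 2.72 CPM in SH (log2 difference 0.85, limma adjusted p = 0.000122, n = 4 each). The rows of a symbol may be separate gene copies or separate assemblies of one locus, and reads of near-identical copies cannot be told apart, so the values of single rows, including those of the tubulins, are uncertain.

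**Figure D3:**
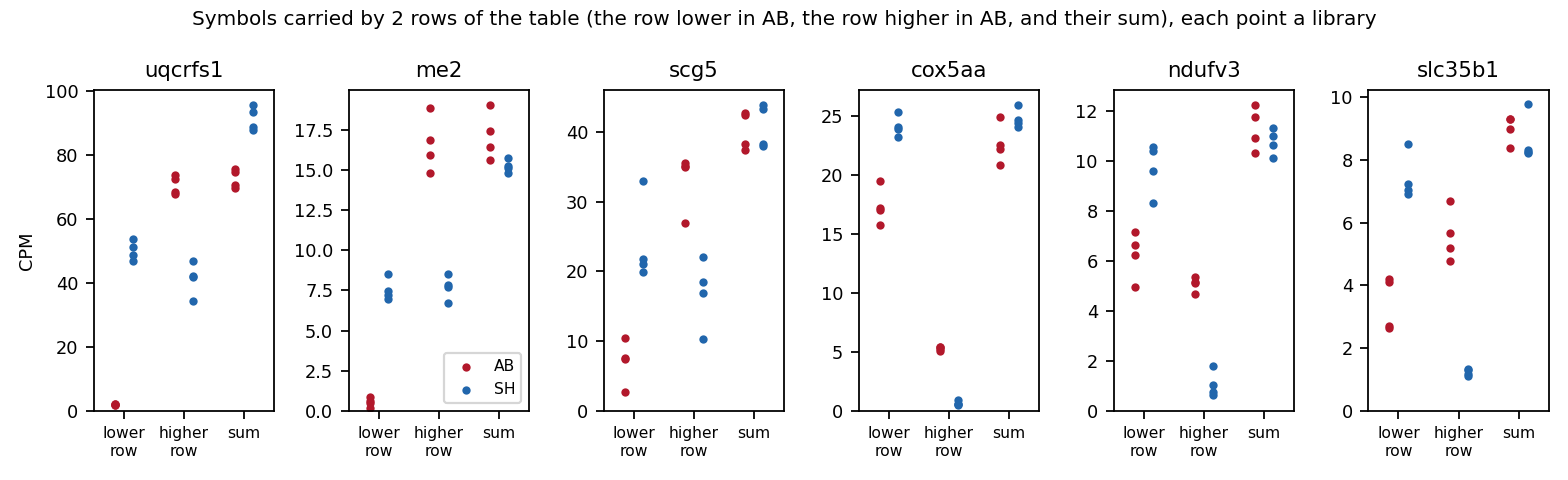
CPM of the row lower in AB, the row higher in AB and their sum is plotted for 6 symbols that the table carries in 2 rows, with each point a library, AB at the left in red and SH at the right in blue. The single rows separate the strains, whereas the AB and SH sums overlap or lie close together, except for uqcrfs1 with 72.5 CPM in AB and 91.3 CPM in SH.

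Among genes of antigen presentation, single genes differed in both directions. MHC class I presents peptides from inside the cell on its surface together with beta-2 microglobulin, after loading with the help of tapasin. Of 24 measured genes of the list, 5 were higher in AB and 5 lower (41.7% called, near the 47.0% of all genes), with a median difference of 0.02 beside -0.04 over all genes. The list does not hold the pair of class II genes described above. The class I gene mhc1uba had 18.4, 21.9, 23.6 and 22.8 CPM in AB, against 90.3, 95.0, 113 and 110 CPM in SH (-2.21 ± 0.05, adjusted p = 1.1e-09). Other class I genes went the other way, as mhc1zel had 3.07 to 4.64 CPM in AB and 1.51 to 2.12 CPM in SH (0.95 ± 0.13) and mhc1zba 221 to 266 CPM in AB and 165 to 221 CPM in SH (0.38 ± 0.08). The beta-2 microglobulin genes b2ml (0.32 ± 0.04) and b2m (0.34 ± 0.09, adjusted p = 0.0112, and 0.0638 with robust estimation) were higher in AB, while tapasin (tapbp, -0.47 ± 0.08) and the peptide-trimming enzyme erap2 (-0.39 ± 0.07) were lower. MHC genes are highly polymorphic, so that reads of an allele unlike the reference may not be counted, and the part of this in the values was not tested.

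Interferon and antiviral genes were likewise mixed, with 8 of 46 higher in AB and 5 lower, 28.3% in all beside 47.0% of all genes, and a median of 0.12. The number called was 20 without SH male pool 1 and 13 to 16 without any other library. The ubiquitin-like interferon effector isg15 had 2.55, 1.32, 1.12 and 2.12 CPM in AB, against 6.49, 4.26, 5.55 and 10.5 CPM in SH (-1.64 ± 0.26, adjusted p = 0.000492), and ifih1, the cytosolic sensor of viral RNA known as MDA5, had 3.10 to 3.55 CPM in AB and 6.68 to 8.37 CPM in SH (-1.06 ± 0.08). The antiviral GTPase genes differed in sign, with mxd at 2.48 to 3.87 CPM in AB and 0.623 to 0.996 CPM in SH (1.36 ± 0.13) and mxe lower in AB (-0.72 ± 0.17). The chemokine gene ccl-c5a had 28.2, 28.7, 31.5 and 22.8 CPM in AB, against 7.81, 9.18, 10.6 and 8.44 CPM in SH (1.57 ± 0.11, adjusted p = 2.8e-06). Of 26 complement and coagulation genes, 5 were higher in AB, among them the coagulation factor f10 (18.0 to 19.4 CPM in AB and 8.25 to 11.2 CPM in SH, 0.90 ± 0.07), c1qa (0.75 ± 0.12) and c7a (0.72 ± 0.08), and 8 were lower, among them the complement inhibitor CFI (-0.49 ± 0.06). These shares, 19.2% and 30.8%, were near the 17.0% and 30.0% of all genes. Of 14 microglia and leukocyte markers, 4 were higher and 3 lower in AB (4 called without AB female pool 1 or SH female pool 1), with mpeg1, a perforin-like gene of macrophages, at 0.44 ± 0.06, the leukocyte plastin lcp1 at 0.94 ± 0.12 and csf1ra, the receptor on which microglia depend, at -0.40 ± 0.08. Among these 14 markers 28.6% were higher in AB and 21.4% lower, beside 17.0% and 30.0% of all genes. The summed level of these markers was 232 to 255 CPM in AB and 209 to 246 CPM in SH, so the strains overlapped.

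Immediate early genes, which neurons transcribe within minutes of activity and which are used as markers of it, were lower in AB. Of 32 measured genes, 18 were lower (56.3%, beside 30.0% of all genes) and 0 were higher, and the median difference was -0.22. The 14 others did not pass the threshold. The neuronal activity-dependent factor npas4a had 63.5, 83.4, 54.6 and 76.9 CPM in AB, against 164, 176, 116 and 139 CPM in SH (-1.09 ± 0.11, adjusted p = 3.9e-05). The AP-1 components were at 13.9 to 18.4 CPM in AB and 27.6 to 37.3 CPM in SH for fosb (-0.96 ± 0.11), at 38.6 to 58.5 CPM in AB and 79.4 to 92.9 CPM in SH for junbb (-0.92 ± 0.09), and at 12.9 to 19.95 CPM in AB and 22.3 to 28.0 CPM in SH for fos (-0.75 ± 0.12). All AB libraries lay below all SH libraries for these genes, for the nuclear receptor nr4a1 (-0.82 ± 0.10) and for 14 of the 32 genes in all, beside 4032 of all 15304 genes. Of 2 more members, named after their values were seen, bdnf, a neurotrophin gene driven by activity, had 60.1 to 66.4 CPM in AB and 76.3 to 89.6 CPM in SH (-0.37 ± 0.05), while the strains overlapped for egr1, with 294 to 414 CPM in AB and 405 to 445 CPM in SH (-0.29 ± 0.07, adjusted p = 0.00754). The list sum was 1078 to 1349 CPM in AB and 1531 to 1584 CPM in SH. Within females the median was -0.19 and 12 genes passed the threshold, and within males the median was -0.31 and 19 passed. After rescaling by the median ratio 16 genes were lower and 0 higher. Fish were killed within a span of hours in the morning, and the time of each pool was not given in the sources used here, so its part in this difference was not tested.

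Chaperone and stress axis genes held further differences. Of 84 heat shock protein and chaperone genes, 33 were lower in AB (39.3%, beside 30.0% of all genes) and 11 higher, with a median of -0.08. After rescaling by the median ratio 22 were lower and 12 higher, where 22.7% of all genes were lower. The inducible hsp70l had 5.10, 3.66, 4.57 and 4.47 CPM in AB, against 17.0, 13.2, 13.7 and 8.95 CPM in SH (-1.45 ± 0.16, adjusted p = 4.55e-05), hsp90aa1.1 had 4.24 to 5.29 CPM in AB and 7.85 to 8.91 CPM in SH (-0.80 ± 0.09), and the Hsp70 co-chaperone bag2 was lower by 0.85. In the other direction were dnajb1a (0.44 ± 0.06) and the heat shock factor hsf2 (0.42 ± 0.07). In the stress axis, corticotropin-releasing hormone drives the pituitary and interrenal gland toward cortisol. The gene of its binding protein, crhbp, had 112, 112, 113 and 108 CPM in AB, against 170, 170, 176 and 173 CPM in SH (-0.62 ± 0.03, adjusted p = 3.0e-07). The AB and SH ranges were far apart. The hormone gene crhb had 38.0 to 41.2 CPM in AB and 45.1 to 48.7 CPM in SH (-0.25 ± 0.04), its receptor crhr1 was at -0.45 ± 0.08 and the related peptide uts1 at -0.41 ± 0.06. The cortisol-inactivating enzyme hsd11b2 was higher in AB (0.36 ± 0.11, adjusted p = 0.0192, and 0.0590 without SH male pool 1). In all, 7 of 16 stress axis genes were lower in AB (43.8%, beside 30.0% of all genes) and 2 higher (12.5%, beside 17.0%). The 2 higher genes were hsd11b2 and monoamine oxidase (mao), which is also counted in the monoamine list below. After rescaling by the median ratio, 5 were lower and 2 higher.

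Sex steroid and thyroid signalling genes, a list of enzymes that also holds hormone receptors and igf1, were lower in AB for 12 of 27 (44.4%, beside 30.0% of all genes). They were higher for 2 (7.41%, beside 17.0%), and the median was -0.12. Brain aromatase (cyp19a1b), the radial glial enzyme that makes estrogens, had 3058 and 3168 CPM in AB females and 1750 and 2222 CPM in AB males, against 5757 and 5373 CPM in SH females and 2944 and 3118 CPM in SH males (-0.73 ± 0.07, adjusted p = 2.7e-05). Within each sex every AB pool was below every SH pool, and the female pools of AB were close to the male pools of SH. The difference was -0.84 in females and -0.62 in males. The androgen-synthesis gene hsd17b3 had 8.92 and 8.56 CPM in AB females and 14.96 and 16.1 CPM in AB males, against 14.5 and 14.5 CPM in SH females and 36.7 and 34.95 CPM in SH males (-0.94 ± 0.09). Deiodinase 2 (dio2), which turns thyroxine into the active hormone, had 45.4 and 42.1 CPM in AB females and 110 and 132 CPM in AB males, against 70.6 and 76.7 CPM in SH females and 181 and 198 CPM in SH males (-0.70 ± 0.06). Its adjusted p was 1.01e-05, but 0.195 without sex in the model and 0.148 with all 16 libraries. For these genes males and females differed within both strains, and the interaction of strain and sex did not pass the threshold for any of them. Also lower in AB was hsd17b12a (-0.61 ± 0.07), and the genes higher in AB were the estrogen receptor esr2b (0.27 ± 0.08, adjusted p = 0.0178, and not under 0.05 without AB male pool 2, SH female pool 1 or SH male pool 1) and pgrmc1 (0.14 ± 0.04, adjusted p = 0.0143, and 0.0556 with all 16 libraries). The growth factor gene igf1, counted among the 12 lower genes, had 7.11 and 6.15 CPM in AB females and 14.9 and 11.6 CPM in AB males. In SH it had 9.68 and 8.91 CPM in females and 15.6 and 19.6 CPM in males (-0.43 ± 0.10, limma adjusted p = 0.00402). Its adjusted p was 0.241 without sex in the model and 0.158 with all 16 libraries. The prostaglandin D synthase gene ptgdsb, which is not in this list, had 206 to 248 CPM in AB and 121 to 162 CPM in SH (0.68 ± 0.05, limma adjusted p = 3.5e-06).

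Hypothalamic peptide genes were lower in AB for 11 of 38 (28.9%, near the 30.0% of all genes) and higher for 3 (7.89%, beside 17.0%). After rescaling by the median ratio 10 were lower and 3 higher, where 22.7% of all genes were lower and 22.6% higher. The oxytocin gene oxt, formerly called isotocin in fish, had 175, 175, 220 and 191 CPM in AB, against 341, 280, 459 and 362 CPM in SH (-0.90 ± 0.08, adjusted p = 1.7e-05), with no overlap in either sex. The gastrin-releasing peptide gene grp had 0.373 to 0.650 CPM in AB and 1.18 to 1.93 CPM in SH (-1.13 ± 0.17) and the neuromedin B gene nmbb was at -0.40 ± 0.08. Higher in AB were the PACAP gene adcyap1a (0.35 ± 0.08) and gnrh2 (0.22 ± 0.08, adjusted p = 0.0374, and not under 0.05 in 5 of the 8 fits without a library). The melanin-concentrating hormone gene pmchl was at -0.21 ± 0.09 and did not pass (adjusted p = 0.0850). Of 20 genes of monoamine synthesis and transport, 5 were higher in AB (25%, beside 17.0% of all genes) and 3 lower (15%, beside 30.0%). In all 8 were called, and 5 without AB male pool 1 or SH male pool 1. Histidine decarboxylase (hdc), which makes histamine, had 3.10, 2.68, 1.85 and 2.12 CPM in AB, against 5.29, 5.40, 5.27 and 4.50 CPM in SH (-0.95 ± 0.11, adjusted p = 5.5e-05), and tyrosine hydroxylase (th), the first enzyme of dopamine synthesis, had 13.7 to 15.6 CPM in AB and 17.6 to 20.8 CPM in SH (-0.38 ± 0.06). The degrading enzymes were higher in AB, with monoamine oxidase (mao) at 144 to 156 CPM in AB and 107 to 120 CPM in SH (0.43 ± 0.04) and comta at 22.99 to 26.3 CPM in AB and 17.1 to 18.4 CPM in SH (0.50 ± 0.05). So was qdprb1, which regenerates the cofactor of tyrosine hydroxylase (0.72 ± 0.08).

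More neuronal and ion channel genes were lower in AB than higher, by small amounts, and the counts depended on the scaling and on gene size, as given after the values. Of 20 neuronal markers, 13 were lower in AB (65.0%, beside 30.0% of all genes) and 2 higher, with a median of -0.12. The synaptic vesicle gene syn1 had 667, 631, 614 and 629 CPM in AB, against 743, 775, 765 and 762 CPM in SH (-0.26 ± 0.03), and the glutamate transporter slc17a7 had 123 to 132 CPM in AB and 155 to 165 CPM in SH (-0.33 ± 0.03). The axonal gene stmn2b was higher (0.11 ± 0.03, adjusted p = 0.0240, and not under 0.05 in 5 of the 8 fits without a library). Of 110 voltage-gated ion channel genes, 55 were lower (50%, beside 30.0%) and 6 higher, with a median of -0.15, led by the calcium channel subunit cacna2d4b at 31.2 to 36.8 CPM in AB and 47.8 to 58.6 CPM in SH (-0.69 ± 0.07) and the BK channel kcnma1b (-0.64 ± 0.09). The inward rectifier kcnj11l went the other way, with 107 to 112 CPM in AB and 83.3 to 87.3 CPM in SH (0.36 ± 0.03). Of 35 glutamate receptor genes, 16 were lower (45.7%, beside 30.0%) and 4 higher, where the NMDA receptor subunit grin2ca was at -0.61 ± 0.05 and the AMPA receptor subunit gria1a, with 76.1 to 83.2 CPM in AB and 47.7 to 52.1 CPM in SH, at 0.70 ± 0.04. GABA and glycine genes had 13 of 38 lower (34.2%, beside 30.0%) and 8 higher (21.1%, beside 17.0%), and after rescaling by the median ratio 8 lower and 11 higher. The same rescaling left 42 channel genes lower and 8 higher, 12 glutamate receptor genes lower and 6 higher, and 9 neuronal markers lower and 2 higher, where 22.7% of all genes were lower. Of the GABA-B receptor genes outside these leading genes, neither gabbr1a (-0.23 ± 0.09, adjusted p = 0.0654) nor gabbr1b (0.03 ± 0.03, adjusted p = 0.387) passed.

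Ribosomal protein and myelin genes were higher in AB. Of 70 cytosolic ribosomal protein genes, which encode the parts of the ribosome that makes the cell's proteins, 55 were higher in AB (78.6%, beside 17.0% of all genes) and 0 lower, with a median of 0.22. The gene rps2 had 1323, 1175, 1424 and 1221 CPM in AB, against 1064, 890, 924 and 764 CPM in SH (0.50 ± 0.09), rplp0 had 1114 to 1263 CPM in AB and 794 to 968 CPM in SH (0.41 ± 0.06) and rps8b 97.5 to 104 CPM in AB and 72.5 to 75.003 CPM in SH (0.45 ± 0.03). All AB libraries were above all SH libraries for 33 of the 70, beside 2241 of all 15304 genes. The sexes differed in number, with a median of 0.12 and 10 ribosomal protein genes called in females and a median of 0.33 and 61 called in males. The interaction did not pass the threshold for any of the 70. The list sum was 26621 to 29851 CPM in AB and 21445 to 26029 CPM in SH. The number called was between 44, without SH male pool 2, and 62, without SH female pool 1.

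Of 19 oligodendrocyte and myelin genes, 12 were higher in AB (63.2%, beside 17.0% of all genes) and 2 lower (10.5%, beside 30.0%), with a median of 0.14. The myelin basic protein gene mbpa had 28753, 28390, 33849 and 30492 CPM in AB, against 21039, 19507, 21950 and 23671 CPM in SH (0.50 ± 0.05, adjusted p = 5.2e-05). The proteolipid gene plp1a had 79.5 to 97.0 CPM in AB and 55.0 to 72.5 CPM in SH (0.53 ± 0.06). The gene cnp has 2 rows, both counted in the list and called in opposite directions (0.49 and -0.31). The sum of the cnp rows was 57.8 ± 2.95 CPM in AB and 51.6 ± 3.34 CPM in SH (SD, n = 4 each, limma adjusted p = 0.0225). Glutamine synthetase, the glial enzyme that recycles glutamate, was split between glula, with 3031 to 3751 CPM in AB and 2469 to 2543 CPM in SH (0.40 ± 0.06), and glulb, which was lower in AB (-0.29 ± 0.08, adjusted p = 0.0126, and 0.0584 with robust estimation). Radial glial and astroglial genes as a list had 7 of 24 higher and 7 lower, 29.2% each, beside 17.0% and 30.0% of all genes.

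**Figure D4:**
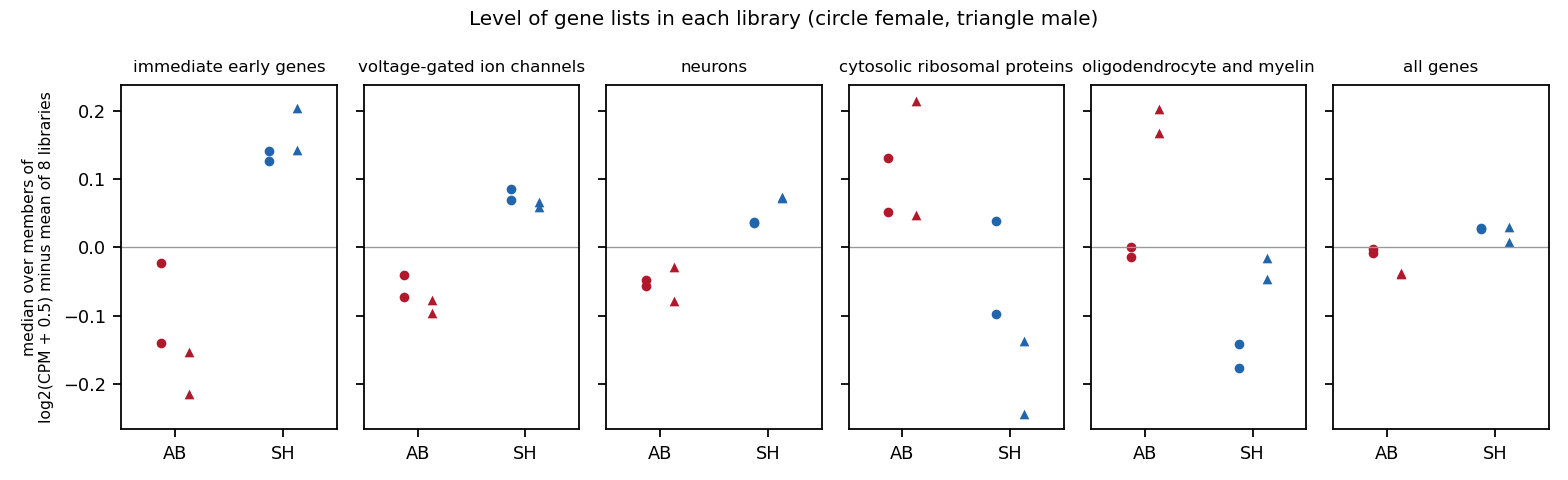
For 5 gene lists and for all genes, the median over members of log2(CPM + 0.5) minus the gene's mean over the 8 libraries is plotted for each library, with circles for females and triangles for males. For immediate early, channel and neuronal genes all AB libraries lie below all SH libraries, for ribosomal and myelin genes all AB libraries lie above all SH libraries, by narrow gaps (ribosomal genes 0.05 or more in AB and 0.04 or less in SH, myelin genes -0.01 or more in AB and -0.02 or less in SH), and over all genes AB lies slightly below SH.

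These list differences ran beside a trend with gene size. Over the 12578 genes matched to a single RefSeq gene, the median difference was 0.02 in the fifth with the shortest genomic spans (24.2% higher in AB and 19.9% lower) and -0.09 in the fifth with the longest (11.1% higher and 39.4% lower). Ribosomal protein genes are short and channel genes long. Over these 12578 genes, 2205 were higher and 3647 lower before the trend on span was removed, and 2745 higher and 2855 lower after. Among the 64 ribosomal protein genes with a span, 53 were higher before and 52 after, with 0 lower in both fits. Among the 28 immediate early genes with a span, 0 were higher and 17 lower in both fits. Among the 17 myelin genes with a span, 11 were higher and 1 lower in both fits. Of the 18 neuronal markers with a span, 11 were lower before and 9 after the trend was removed, with 2 higher in both fits. The median of these 18 was -0.07 after, beside -0.12 for all 20 markers before. A span was at hand for 68.2% of the channels, 68.6% of the glutamate receptors and 71.1% of the GABA and glycine genes, too few to carry the check over to the whole lists. Among the 75 channels with a span, 36 were lower and 3 higher before and 24 lower and 4 higher after, with a median of -0.08 after. Among the 24 glutamate receptors with a span, 11 were lower and 4 higher before and 7 lower and 6 higher after, with a median of -0.01 after. Among the 27 GABA and glycine genes with a span, 10 were lower and 4 higher before and 5 lower and 7 higher after. Whether the trend comes from RNA quality, library preparation or the brains was not tested.

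Genes of sterol synthesis were lower in AB for 14 of 26 (53.8%, beside 30.0% of all genes) and higher for 6 (23.1%, beside 17.0%), with a median of -0.15. The median was -0.19 in females and -0.09 in males, and the interaction did not pass the threshold for any of these genes. The list sum was 1339 and 1362 CPM in AB females and 1522 and 1541 CPM in SH females. In males the strains overlapped, with 1255 and 1203 CPM in AB and 1290 and 1239 CPM in SH. The rate-limiting enzyme hmgcra had 47.6 and 60.6 CPM in AB females and 48.9 and 44.9 CPM in AB males, against 91.6 and 85.9 CPM in SH females and 57.7 and 62.2 CPM in SH males (-0.53 ± 0.09, adjusted p = 0.000608), and insig2, which restrains the pathway, was at -0.60 ± 0.10. Among those higher in AB was tm7sf2, a sterol reductase gene, with 26.9 to 34.7 CPM in AB and 21.8 to 26.2 CPM in SH (0.35 ± 0.08). The rescaling by the median ratio left 9 lower and 6 higher. Among 86 oxidative phosphorylation genes, 28 were lower (32.6%) and 19 higher (22.1%), near the 30.0% and 17.0% of all genes, and after rescaling by the median ratio 16 were lower and 24 higher. These counts hold both rows of uqcrfs1, cox5aa and ndufv3, which were called in opposite directions. The complex II subunit sdhda had 39.9, 43.8, 35.3 and 40.2 CPM in AB, against 17.5, 15.1, 20.7 and 19.5 CPM in SH (1.11 ± 0.09), the ATP synthase gene atp5ia 98.1 to 128 CPM in AB and 57.1 to 67.8 CPM in SH (0.84 ± 0.08), and the complex I subunit NDUFB3 65.8 to 72.0 CPM in AB and 89.0 to 104 CPM in SH (-0.48 ± 0.04).

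Tubulins differed in both directions. Besides TUBB2B and tubb4b, tuba1b had 55.7, 37.3, 55.8 and 57.7 CPM in AB, against 136, 121, 119 and 113 CPM in SH (-1.25 ± 0.12), while tuba1c (0.37 ± 0.04), tuba1a (0.41 ± 0.05) and tubb5 (0.33 ± 0.05) were higher in AB. The summed level of the 9 tubulins was 3074 to 3299 CPM in AB and 2736 to 2830 CPM in SH. In the redox list, 11 of 48 genes were higher, with the glutathione transferase gsto1 at 75.5 to 84.0 CPM in AB and 46.1 to 53.9 CPM in SH (0.68 ± 0.05), and 10 were lower. As shares these were 22.9% and 20.8%, beside 17.0% and 30.0% of all genes. Of 39 circadian genes, 7 were higher, with tefb (0.38 ± 0.08) and cry-dash (0.48 ± 0.07) among them, and 4 lower, with npas2 (-0.74 ± 0.13) among them, 28.2% in all beside 47.0% of all genes. After rescaling by the median ratio 12 circadian genes were higher and 2 lower, and the number called ranged from 7 to 16 over the alternatives. Of 68 protocadherin and cadherin genes, 12 were higher, led by pcdh1g26 (6.63 ± 1.20 CPM in AB and 1.65 ± 0.758 CPM in SH, SD, n = 4 each, log2 difference 1.78), and 21 lower. Their shares of 17.6% and 30.9% were near the 17.0% and 30.0% of all genes. Among the genes of cartilage, bone and inner ear, otogelin (OTOG), a protein of the inner ear's membranes, was at 4.71 to 5.999 CPM in AB and 1.78 to 2.12 CPM in SH (1.23 ± 0.09). Of these 22 genes 4 were higher and 4 lower, 18.2% each, beside 17.0% and 30.0% of all genes.

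**Figure D5:**
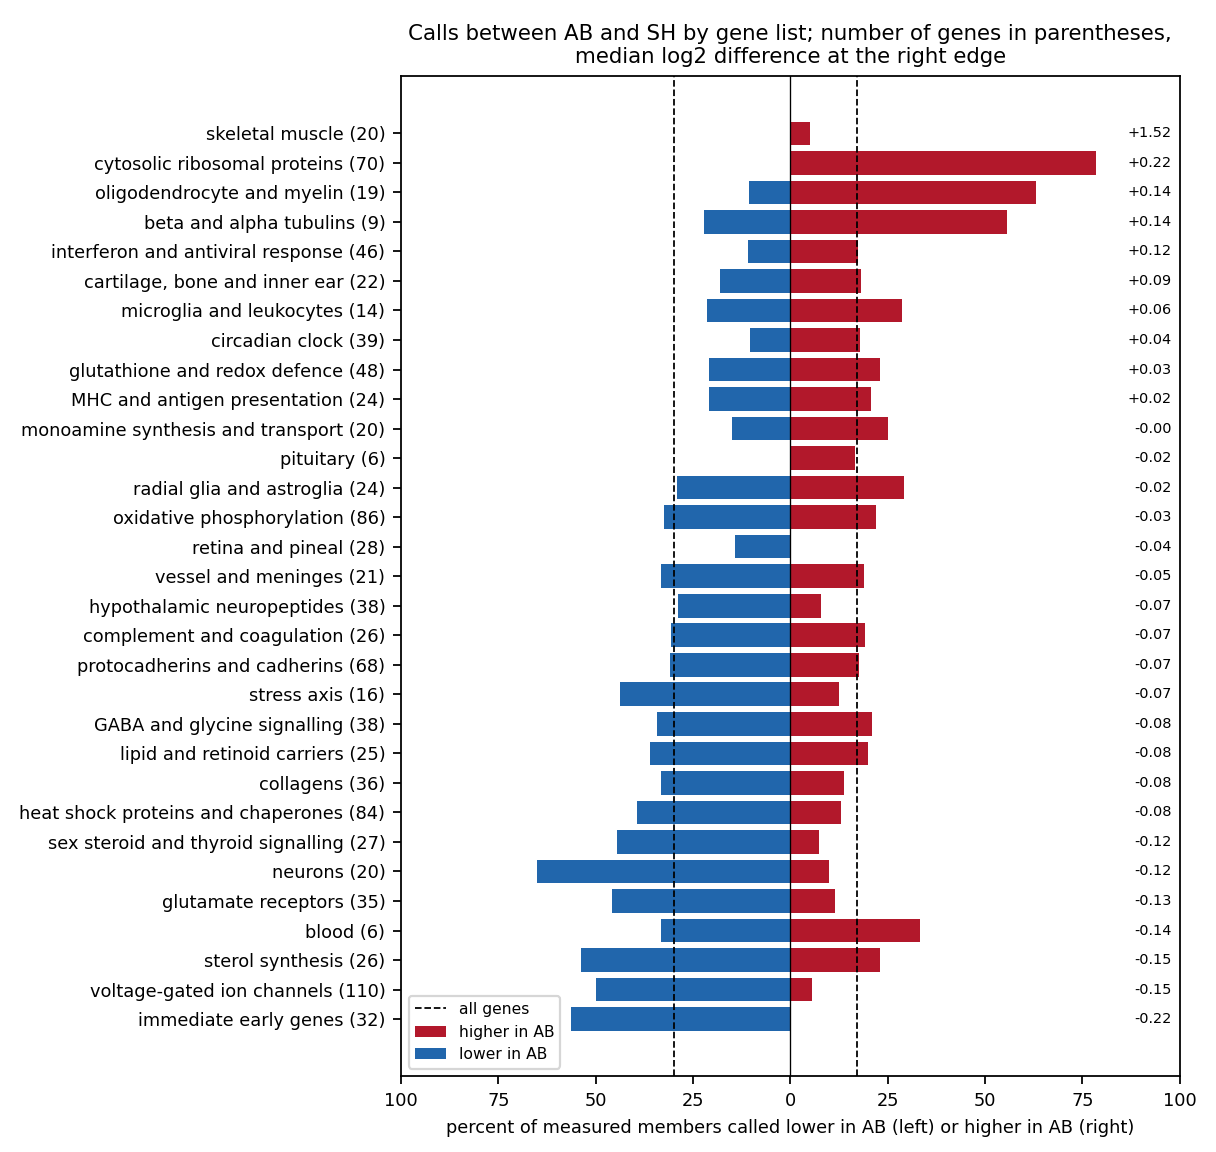
Horizontal bars give the percent of measured members of 31 gene lists that were called lower in AB (blue, left) or higher in AB (red, right), with the number of members in parentheses, the median log2 difference at the right edge and dashed lines at the 30.0% and 17.0% of all genes. Ribosomal protein genes reach 78.6% higher and immediate early genes 56.3% lower, whereas the skeletal muscle list has a median of 1.52 with 1 of 20 genes called.

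The skeletal muscle list shows what 1 library does to a median. Its median was 1.52 with AB male pool 2 and 0.51 without it, and 1 gene passed the threshold, the parvalbumin gene pvalb1, with 3.38, 3.85, 16.2 and 222 CPM in AB, against 2.24, 1.15, 5.83 and 1.89 CPM in SH (2.46 ± 0.77, adjusted p = 0.0228, and 1.41 with adjusted p = 0.00659 without AB male pool 2). Its adjusted p was 0.0503 without SH male pool 1 and 0.0756 without SH male pool 2. With AB male pool 2 left out, 5 of the 20 genes passed the threshold, and without AB male pool 1, 9 did. Over all genes 6744 passed the threshold without AB male pool 2, 2513 higher and 4231 lower in AB. For some other lists the counts changed little without it, with 55 ribosomal protein genes higher and 0 lower and 0 immediate early genes higher and 17 lower. Myelin genes then had 11 higher and 1 lower, and channel genes 6 higher and 50 lower. Larger changes were found, among others, for oxidative phosphorylation genes, from 19 higher and 28 lower to 17 and 21. Interferon and antiviral genes went from 8 higher and 5 lower to 11 and 5.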

How the data were processed

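Pooled whole-brain RNA was sequenced by the authors as single-end Illumina reads (TruSeq V2 libraries, CASAVA per the labels). The reads were aligned with GSNAP to the Zv9 assembly, counted per protein-coding gene with HTSeq in union mode, and deposited by the authors as CPM, read counts scaled to a total of 1000000 in each library, so read counts were not at hand and no count test was run. The authors tested genes with edgeR, and none of their test results were used here. Library depth was read from the smallest steps of the CPM values and only describes precision.

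AB and SH libraries were grouped by the labels. log2(CPM + 0.5) was fitted with limma 3.58.1 in R 4.3.3 (mean-variance trend), with strain and sex as terms. A model with a mean for each strain and sex gave the contrasts within a sex and the interaction. P-values are two-sided, were adjusted by Benjamini-Hochberg over all 15304 genes, and measure the spread between pools. Every adjusted p in the text is from this fit unless a setting is named. The script was tested on simulated data. Tables and figures were made with Python 3.11.15.

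Genes and the 31 lists were chosen with earlier results of these data known. Named were the 10 genes with the largest difference in each direction (mean of at least 5 CPM in the higher strain, no overlap), the 12 largest with an established name, up to 4 per list and direction, genes with an interaction, and 9 genes the study discusses. Genes of lists treated briefly were left out. Some genes that the rule named are not reported here. The rows with a shared symbol, trim35-1, caspbl, ccdc40, bdnf and egr1 were added after their values were seen. Current names, gene order and gene spans come from RefSeq for assembly GRCz12tu, which matched 12578 genes (82.2%), and its coordinates served only to order the genes and to give their spans. Alternatives were other scalings (median ratio, quantile), added constants of 0.1 and 1 CPM, minimum levels of 1 and 5 CPM, all 16 libraries, no sex term, a replicate block, limma without trend or with robust estimation, and each library left out. Chosen after seeing the data were the removal of the trend on gene span, the genes with a known span alone, and summed rows of a symbol. HSB and LSB libraries entered only the alternative with all 16 libraries and the placement of values.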

Additional observations from a re-analysis of the deposited data

Results flagged for a closer look

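The strain difference itself differed between the sexes for 2 genes by the interaction test, TUBB2B (-2.88, males minus females, log2) and si:dkey-177e13.4 (-0.63). The causes were not tested.

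Among 358 groups of 4 libraries, 20 had a library far from the others by Dixon's criterion, and chance alone gives about 1 in 20 groups. AB male pool 2 was high for the muscle genes mybpc2b (38.2 CPM) and pvalb1 (222 CPM) and for the summed skeletal muscle genes (3652 CPM), and low for a scg5 row (26.9 CPM). AB female pool 2 was high for the activity-related genes nr4a1 (12.3 CPM) and fos (19.95 CPM) and for the summed interferon genes (1303 CPM), and it stood apart for the receptor subunit grin2bb (245 CPM), for tuba1b (37.3 CPM) and for the GABA-synthesis gene gad1a (26.1 CPM). AB female pool 1 was high for hsd17b12a (20.2 CPM), cacna2d4b (36.8 CPM), lcp1 (9.40 CPM) and tubb4b (0.0860 CPM, only a few reads), and AB male pool 1 was low for si:ch211-114l13.1 (27.2 CPM). SH male pool 1 was high for the summed microglia and leukocyte markers (246.3 CPM), the summed skeletal muscle genes (222.8 CPM) and the summed MHC genes (1810.5 CPM), SH male pool 2 was low for hdc (4.50 CPM), and SH female pool 1 was high for the other scg5 row (33.0 CPM). The part of these libraries in the strain differences was not tested beyond leaving each out.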

How the results depend on the processing

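The number of genes that differed between AB and SH was 7190, ranged from 6252 to 6744 without single libraries and from 5600 to 7556 under the other alternatives. Within females (4388) it ranged from 2265 to 4497 and within males (4789) from 2910 to 4595 without single libraries, where the arm that lost a library had 1 pool, assumed to vary like the other groups. The interaction (2 genes) ranged from 0 to 37 without single libraries. It was 0 with all 16 libraries (582 genes at an unadjusted p under 0.05) and 0 with limma without trend (967), 6 with trend and robust estimation, 1 among genes with a known span and 1 with the trend on span removed, and the cause was not tested. The share of calls higher in AB was 36.2%, against 49.9% with median ratio scaling, 48.5% with quantile scaling and 49.0% with the trend on span removed.

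Over all genes, deviations of same-numbered pools correlated at -0.14 to 0.10, which does not exclude a shared part in some genes. For ribosomal protein genes the library median was higher in pool 1 than in pool 2 in each strain and sex. The medians were 0.13 and 0.05 in AB females and 0.21 and 0.05 in AB males. In SH they were 0.04 and -0.10 in females and -0.14 and -0.24 in males. Oxidative phosphorylation genes had the same order of pools, whereas immediate early genes did not. With the pool number as a replicate block, 7556 genes differed, 5134 in females, 5398 in males and 3 by interaction. No difference of the 148 named genes reversed in 3027 pairs of a gene and an alternative. Of these pairs 2963 kept their side of the threshold, 54 (in 14 genes) lost it and 10 (in 3 genes) gained it. Most of the genes were named because they passed the threshold in these same libraries, so this stability is in part built in. The numbers called in the lists moved by over 1.5 times in 38 of 651 pairs of a list and an alternative, over 18 lists. Genes at a few reads per library have folds that depend on the added constant.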

Other observations

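The remaining lists are given by their counts, beside 17.0% of all genes higher in AB and 30.0% lower. Of 36 collagens 5 were higher in AB and 12 lower, and among the 27 with a known span, 4 were higher and 6 lower before and 5 higher and 4 lower after the trend on span was removed, with a median of 0.07 after, beside -0.08 for all 36 before. Of 25 lipid and retinoid carriers 5 were higher and 9 lower, and of 21 vessel and meninges genes 4 were higher and 7 lower. Of 28 retina and pineal genes 0 were higher and 4 lower. Their median difference was 0.40 in females and -0.62 in males, and the interaction did not pass the threshold for any of them. Of 6 pituitary genes 1 was higher, the prolactin-family gene prl2, with 11.3 to 15.8 CPM in AB and 5.71 to 7.27 CPM in SH, and 2 pituitary genes were called without SH male pool 1. Of 6 blood genes 2 were higher and 2 lower, and 1 was called without SH female pool 2. The summed level of blood genes was 1882 to 2273 CPM in AB and 1666 to 2046 CPM in SH.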
